A study of Mus musculus with 12 samples.

Results

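Transcripts of 10 adipocyte genes were followed across 12 RNA-seq libraries of mouse mammary tumours that grew inside the mammary fat pad. The genes were Adipoq, Cfd, Retn, Lep, Plin1, Cidec, Fabp4, Lipe, Pck1 and Car3, taken by symbol from the deposited table, and all 10 were among its 41009 gene symbols. The rows were taken by symbol, and the set of genes was drawn up with earlier results of these data known. The tumours came from mCherry-4T1 cells, a mammary carcinoma line of BALB/c origin that carries a red fluorescent label, placed in the fat pads of female BALB/c mice of 4 to 5 weeks of age. Treatment by intraperitoneal injection began 7 days later in 4 groups of 3 libraries. The groups received VHH-OD-Fc at 3.5 mg/kg, VHH-PD-1-Fc at 2.6 mg/kg, VHH-OD-PD-1-Fc at 4.3 mg/kg, or the control protein Ctrl-Fc at 5 mg/kg (Ctrl). VHH names the variable domain of camelid antibodies that lack light chains, Fc the constant antibody tail fused to it, and PD-1 a receptor that restrains T cells. VHH-OD-PD-1-Fc carries both binding arms. The labels do not spell out OD, and the series title names endogenous digoxin-like substances as a nanobody target. The doses differ, so no comparison between treatments was made at a matched dose. Whether each library of a group is its own animal is not stated, and p-values therefore cover spread between libraries only, part of which may be technical.

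White adipocytes fill most of the mammary fat pad and store triglyceride in a single large lipid droplet. They coat that droplet with proteins such as perilipin 1 and CIDEC, release fatty acids from it by lipolysis, and secrete hormones, the adipokines, among them adiponectin, adipsin, resistin and leptin. A carcinoma injected into the pad grows next to this fat.

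Values are FPKM, fragments per kilobase of transcript scaled by the size of the library, as the authors deposited them. The estimated depth was 21800000 to 30500000 fragments per library, at which 1 fragment on a transcript of 1 kb gave 0.0328 to 0.0459 FPKM. The 6 libraries with a PD-1 arm had FPKM sums of 388142 to 401179, and the 6 without it had sums of 327792 to 345596. No batch is named in the labels, and a batch that follows that arm cannot be told apart from treatment. Only VHH-OD-Fc against Ctrl and VHH-OD-PD-1-Fc against VHH-PD-1-Fc compare libraries within these sets. Most alike were the libraries of VHH-OD-PD-1-Fc, with a median SD over the genes tested of 0.0747 on the log2 scale, against 0.123 to 0.247 in the other groups. Some libraries stood apart in genes of other cell types. VHH-OD-Fc replicate 2 had the highest summed level of 15 skeletal muscle genes (2681 FPKM), VHH-PD-1-Fc replicate 2 the highest of 10 macrophage genes (4252 FPKM), and Ctrl replicate 1 the lowest of 8 epithelial tumour genes (1239 FPKM). Results were therefore also computed without these 3 libraries, and that alternative was added after the data were seen.

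Start-site regions of 4 of the genes are shown, for 2 secreted products (Adipoq and Cfd) and 2 droplet proteins (Cidec and Plin1). The RefSeq promoter table (GRCm38.p6) held windows of 250 bases before to 50 bases after an annotated start for 8 of the 10 genes, 10 windows in all, and the build behind the deposited FPKM values is not established. Adiponectin (Adipoq) lies on chr16:23146286-23146585 (plus strand), adipsin (Cfd) on chr10:79890603-79890902 (plus strand), Cidec in its second listed window on chr6:113434715-113435014 (minus strand) and Plin1 on chr7:79732727-79733026 (minus strand). Capitals mark the motif CCAAT, read on either strand, in Adipoq and the motif TTGCNNAA, the C/EBP type, in Cidec and Plin1.
Adipoq: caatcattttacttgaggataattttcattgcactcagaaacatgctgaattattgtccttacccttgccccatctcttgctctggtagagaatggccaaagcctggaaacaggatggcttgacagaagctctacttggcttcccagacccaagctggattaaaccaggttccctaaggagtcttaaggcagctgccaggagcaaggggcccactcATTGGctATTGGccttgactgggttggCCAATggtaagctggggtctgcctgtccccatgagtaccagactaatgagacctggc
Cfd: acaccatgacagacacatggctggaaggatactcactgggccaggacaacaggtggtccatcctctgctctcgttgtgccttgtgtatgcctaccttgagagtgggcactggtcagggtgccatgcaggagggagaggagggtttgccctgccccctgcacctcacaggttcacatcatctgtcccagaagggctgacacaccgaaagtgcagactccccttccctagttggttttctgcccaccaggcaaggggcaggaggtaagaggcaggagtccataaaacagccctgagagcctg
Cidec: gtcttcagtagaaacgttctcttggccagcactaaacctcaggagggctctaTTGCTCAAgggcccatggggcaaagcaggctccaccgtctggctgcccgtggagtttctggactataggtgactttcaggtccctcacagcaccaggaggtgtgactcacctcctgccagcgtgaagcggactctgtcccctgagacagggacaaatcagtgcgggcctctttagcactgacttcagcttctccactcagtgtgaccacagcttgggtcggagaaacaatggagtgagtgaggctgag
Plin1: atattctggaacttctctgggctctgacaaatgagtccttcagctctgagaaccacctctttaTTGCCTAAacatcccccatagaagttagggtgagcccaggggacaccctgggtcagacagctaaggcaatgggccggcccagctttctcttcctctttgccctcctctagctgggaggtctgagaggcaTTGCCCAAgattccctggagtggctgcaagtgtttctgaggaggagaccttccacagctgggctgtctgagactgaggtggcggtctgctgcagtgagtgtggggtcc
The Adipoq window held CCAAT 3 times, with first bases at positions -34, -27 and -7 from the start, on the minus, minus and plus strands. TTGCNNAA began at position -198 from the Cidec start and at -187 and -58 from the Plin1 start, and the Lep window held it at -55, on both strands. In all, 5 motifs were searched on both strands in these windows and in all 32851 windows of the table. TTGCNNAA was in 3 of the 10 windows and in 10.8% of all windows, and CCAAT in 1 of the 10 and in 37.4% of all. TATAAA (13.6% of all windows), AGGTCA (16.3%) and the direct repeat of AGGTCA known as DR1 (0.0396%, each match of which holds AGGTCA) were in none of the 10, so these letters are not in these windows. No capitals are in the Cfd window because none of the motifs was found there. The first listed Cidec window, which is not shown, held none of the motifs either. The matches are a description of letters only.

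Adipokine transcripts were highest in VHH-OD-Fc tumours and reached their top in 1 library of that group. Adipoq, which encodes adiponectin, a hormone that raises insulin sensitivity, had 4.70, 14.8 and 8.62 FPKM in VHH-OD-Fc replicates 1 to 3, 0.0317, 0.565 and 2.97 FPKM in VHH-PD-1-Fc tumours, 1.09, 1.06 and 1.17 FPKM in VHH-OD-PD-1-Fc tumours, and 1.32, 1.02 and 6.46 FPKM in Ctrl tumours. All 3 VHH-OD-Fc libraries lay above every library of both groups with a PD-1 arm, while Ctrl replicate 3 lay above VHH-OD-Fc replicate 1. Cfd encodes adipsin (complement factor D), the serine protease that cleaves factor B in the alternative complement pathway. It had 55.4, 209 and 122 FPKM in VHH-OD-Fc tumours, 0.308, 6.07 and 35.1 FPKM in VHH-PD-1-Fc tumours, 13.0, 13.7 and 16.4 FPKM in VHH-OD-PD-1-Fc tumours, and 14.2, 17.6 and 88.0 FPKM in Ctrl tumours. Its order of libraries was nearly that of Adipoq, with VHH-PD-1-Fc replicate 1 at the bottom and Ctrl replicate 3 between the VHH-OD-Fc libraries. Retn encodes resistin, an adipocyte hormone in mice that opposes insulin action. It had 2.71, 11.5 and 7.13 FPKM in VHH-OD-Fc tumours, 0.610, 0.567 and 2.33 FPKM in VHH-PD-1-Fc tumours, 1.11, 1.99 and 1.20 FPKM in VHH-OD-PD-1-Fc tumours, and 0.803, 0.870 and 4.25 FPKM in Ctrl tumours. Here too 1 Ctrl library and 1 VHH-PD-1-Fc library, each replicate 3, stood above the others of their group. Lep, the gene of the satiety hormone leptin, was close to the detection limit, with 0.0634, 0.260 and 0.201 FPKM in VHH-OD-Fc tumours, 0.0457, 0.0137 and 0.0288 FPKM in VHH-PD-1-Fc tumours, 0, 0.0955 and 0.0825 FPKM in VHH-OD-PD-1-Fc tumours, and 0.0177, 0.0644 and 0.207 FPKM in Ctrl tumours. No library reached 1 FPKM of Lep, so it was not tested. Its VHH-PD-1-Fc libraries lay below its VHH-OD-Fc libraries, at levels near those of single fragments.

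The lipid droplet genes were also highest in VHH-OD-Fc replicate 2. Cidec encodes a droplet protein that joins small droplets into large ones. It had 5.27, 19.2 and 9.97 FPKM in VHH-OD-Fc tumours, 0.0707, 0.173 and 2.10 FPKM in VHH-PD-1-Fc tumours, 1.21, 0.906 and 1.32 FPKM in VHH-OD-PD-1-Fc tumours, and 0.747, 1.61 and 7.19 FPKM in Ctrl tumours. Plin1 encodes perilipin 1, which covers the droplet and controls access of lipases to it. It had 0.714, 2.59 and 0.858 FPKM in VHH-OD-Fc tumours, 0.0941, 0.123 and 0.141 FPKM in VHH-PD-1-Fc tumours, 0.0886, 0.121 and 0.0425 FPKM in VHH-OD-PD-1-Fc tumours, and 0.405, 0.105 and 1.12 FPKM in Ctrl tumours. For both genes the VHH-OD-Fc libraries lay above all 6 libraries with a PD-1 arm and overlapped the Ctrl libraries. Plin1 reached 1 FPKM in only 2 libraries and was left out of the main test by the filter on low values, which asks for 1 FPKM in at least 3 libraries.

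Genes of fatty acid handling split into 2 that followed this order and 1 that did not. Fabp4 encodes the fatty acid carrier of adipocytes, which macrophages and capillary endothelium also make. It had 14.99, 52.7 and 26.2 FPKM in VHH-OD-Fc tumours, 1.94, 1.47 and 7.23 FPKM in VHH-PD-1-Fc tumours, 6.46, 5.79 and 6.79 FPKM in VHH-OD-PD-1-Fc tumours, and 10.9, 9.45 and 22.0 FPKM in Ctrl tumours. Every Ctrl library lay above every library with a PD-1 arm for this gene. Pck1 encodes the enzyme that starts glyceroneogenesis, the source of glycerol 3-phosphate for triglyceride in fat. It had 1.79, 6.26 and 1.16 FPKM in VHH-OD-Fc tumours, 0, 0.114 and 0.677 FPKM in VHH-PD-1-Fc tumours, 0.0300, 0.117 and 0.00577 FPKM in VHH-OD-PD-1-Fc tumours, and 0.358, 0.355 and 1.65 FPKM in Ctrl tumours. Only 4 libraries reached 1 FPKM of Pck1, the 3 VHH-OD-Fc libraries and Ctrl replicate 3, so it passed the filter through the groups in which it was high. Lipe encodes hormone-sensitive lipase, which splits diglycerides during lipolysis and is made in many tissues. It had 5.55, 7.21 and 4.84 FPKM in VHH-OD-Fc tumours, 3.68, 5.38 and 4.05 FPKM in VHH-PD-1-Fc tumours, 4.72, 5.16 and 3.96 FPKM in VHH-OD-PD-1-Fc tumours, and 4.97, 3.97 and 5.47 FPKM in Ctrl tumours. Its libraries overlapped between all pairs of groups. An antisense gene, 4732471J01Rik, shares 918 exon bases with Lipe in the GENCODE M21 annotation and had 0.0496 to 0.419 FPKM. Whether the counting used strand is not given, so reads of this gene and of Lipe cannot be told apart over the shared bases. None of the other 9 genes overlapped an annotated gene there.

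Car3 encodes carbonic anhydrase 3, an abundant protein of fat cells that is also made in skeletal muscle. It had 13.0, 71.6 and 33.5 FPKM in VHH-OD-Fc tumours, 0.298, 0.913 and 5.36 FPKM in VHH-PD-1-Fc tumours, 5.34, 4.63 and 4.19 FPKM in VHH-OD-PD-1-Fc tumours, and 4.65, 12.7 and 17.5 FPKM in Ctrl tumours. The VHH-OD-Fc libraries lay above all libraries with a PD-1 arm, and Ctrl replicate 2, which had the most muscle transcripts of the Ctrl libraries, was the second highest Ctrl library.

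**Figure D1:**
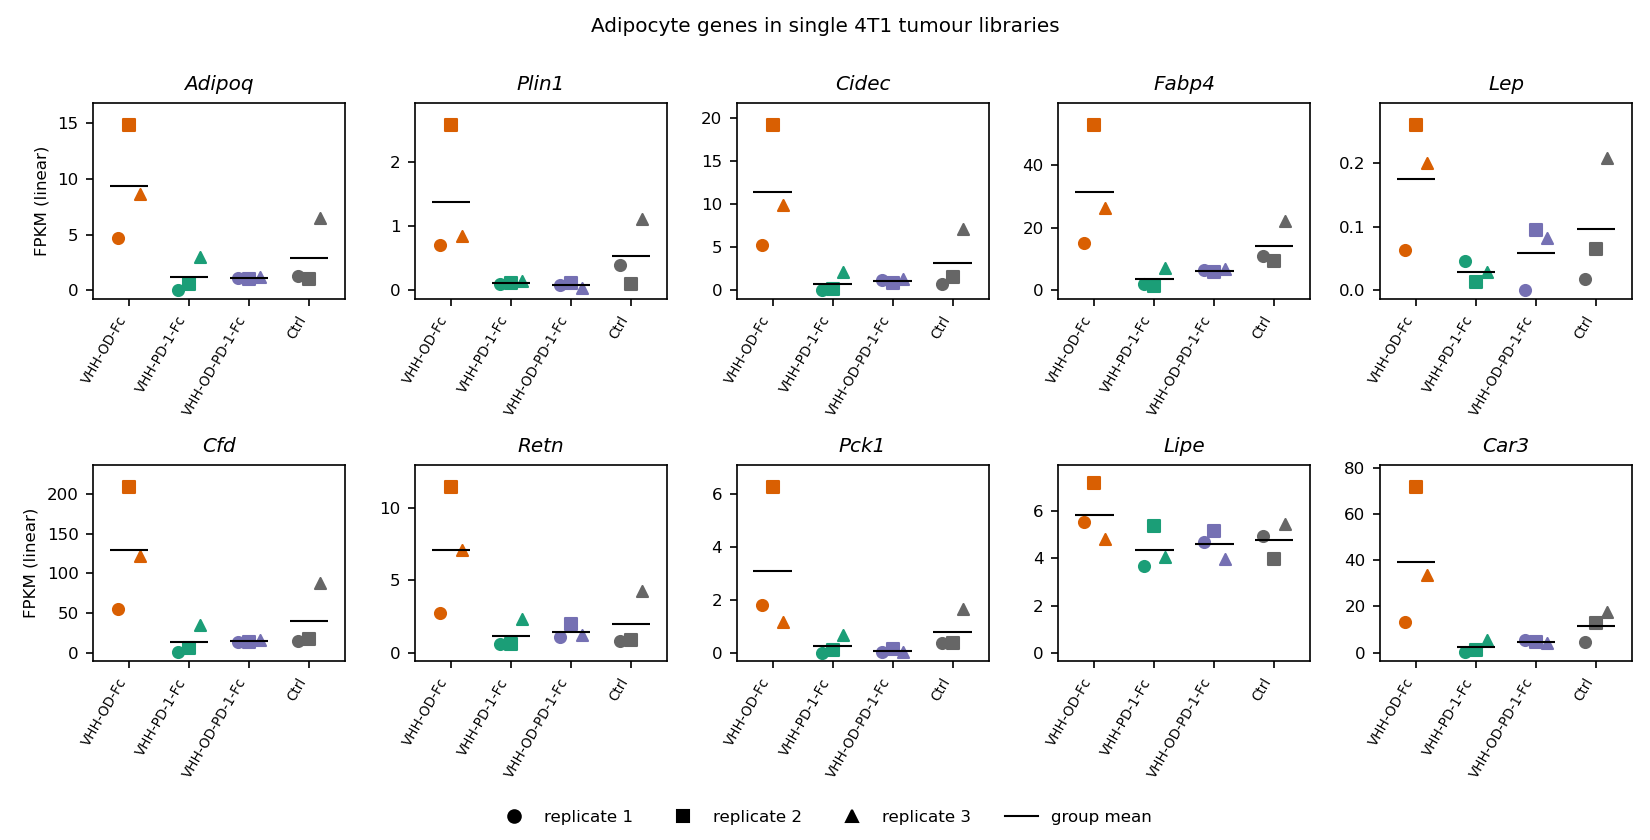
FPKM of each of the 10 adipocyte genes on a linear axis, with a point per library, a symbol per replicate number and a line at the mean of each group of 3 libraries. VHH-OD-Fc replicate 2 is the highest library in every panel and Ctrl replicate 3 the highest Ctrl library, and the Lipe panel shows groups that overlap throughout.

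Single libraries held much of the spread. VHH-OD-Fc replicate 2 was the highest of the 12 libraries for all 10 genes, Ctrl replicate 3 the highest Ctrl library for all 10, and VHH-PD-1-Fc replicate 3 the highest of its group for 8. VHH-PD-1-Fc replicate 1 was the lowest of the 12 libraries for 6 of the genes. Together the 10 genes made up 0.0313%, 0.114% and 0.0655% of the FPKM sum in VHH-OD-Fc tumours, 0.00182%, 0.00384% and 0.0155% in VHH-PD-1-Fc tumours, 0.00839%, 0.00852% and 0.00897% in VHH-OD-PD-1-Fc tumours, and 0.0114%, 0.0142% and 0.0465% in Ctrl tumours. Within each of 3 groups this share therefore differed several-fold between libraries, and in VHH-OD-PD-1-Fc tumours it was nearly constant. The median SD between libraries over the 8 tested genes was 0.882 in VHH-OD-Fc tumours, 0.894 in VHH-PD-1-Fc tumours, 0.147 in VHH-OD-PD-1-Fc tumours and 0.882 in Ctrl tumours on the log2 scale. In bulk RNA, fewer adipocytes and less adipocyte RNA per cell cannot be told apart.

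VHH-OD-PD-1-Fc tumours had less adipocyte RNA than VHH-OD-Fc tumours in 6 of 7 genes tested, all but Lipe, and in Pck1, which is kept apart because it passed the filter only through libraries in which it was high. Differences were tested with limma on log2(FPKM + 1), a scale that understates the change of low genes, and called at an adjusted p under 0.05 over all 14306 genes past the filter. Adipoq averaged 1.11 ± 0.0599 FPKM in VHH-OD-PD-1-Fc tumours and 9.38 ± 5.11 FPKM in VHH-OD-Fc tumours (SD, n = 3 each), a fall of 2.18 on the log2 scale (log2 fold change -2.18, SE 0.57, limma adjusted p = 0.0114). Cfd, the most abundant of the genes, averaged 14.4 ± 1.79 FPKM in VHH-OD-PD-1-Fc tumours and 129 ± 77.0 FPKM in VHH-OD-Fc tumours, with a log2 fold change of -2.89 (SE 1.02, limma adjusted p = 0.0432). The droplet gene Cidec changed by -2.38 (limma adjusted p = 0.00875), Car3 by -2.52 (limma adjusted p = 0.0124), Fabp4 by -1.96 (limma adjusted p = 0.0103) and Retn by -1.59 (limma adjusted p = 0.0271) on the log2 scale. Lipe averaged 4.62 ± 0.607 FPKM in VHH-OD-PD-1-Fc tumours and 5.87 ± 1.22 FPKM in VHH-OD-Fc tumours and did not pass the test (log2 fold change -0.28, limma adjusted p = 0.191). Of all genes tested, 39.9% were called in this comparison and 24.5% were called lower. The median log2 fold change was -2.18 over the 7 genes without Pck1 and -0.11 over all genes tested. Among the 7 genes without Pck1, libraries of the groups did not overlap for 6, all but Lipe. Such separation was seen in 40.4% of all genes tested in the same direction. Pck1 and the untested Plin1 were separated too, which is not used as support. With no filter on low values, a test that does not select genes by level, Pck1 changed by -1.75 (SE 0.43, limma adjusted p = 0.0192) and Plin1 by -1.06 (SE 0.29, limma adjusted p = 0.0302), while Cfd (0.0853) and Retn (0.0582) then missed the threshold on their limma adjusted p.

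The likeness of the 3 VHH-OD-PD-1-Fc libraries bears on this comparison directly. With these libraries averaged and counted as 1 sample, the log2 fold changes stayed between -2.88 and -1.57 for these 6 genes and Pck1, and none was called (limma adjusted p = 0.12 to 0.267). Without VHH-OD-Fc replicate 2, Cfd (-2.45, limma adjusted p = 0.128) and Retn (-1.19, limma adjusted p = 0.101) were not called. Both were also lost without VHH-OD-Fc replicate 3, VHH-OD-PD-1-Fc replicate 1 or VHH-OD-PD-1-Fc replicate 3. Cfd was lost as well without VHH-OD-PD-1-Fc replicate 2 (limma adjusted p = 0.0973), VHH-PD-1-Fc replicate 2 (0.0503) or Ctrl replicate 2 (0.0526), with a pseudocount of 0.1 (0.0858) and with median-of-ratios scaling (0.0541). Without the 3 libraries that stood apart, 4 genes were called (Cidec, Fabp4, Pck1 and Car3) and Adipoq had a log2 fold change of -1.81 (limma adjusted p = 0.0514).

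VHH-PD-1-Fc tumours were lower than VHH-OD-Fc tumours in 6 of 7 genes, Lipe being the exception and Pck1 again kept apart, and this comparison shares its VHH-OD-Fc libraries with the one before. Car3 averaged 2.19 ± 2.76 FPKM in VHH-PD-1-Fc tumours and 39.4 ± 29.7 FPKM in VHH-OD-Fc tumours (SD, n = 3 each), with a log2 fold change of -3.71 (SE 0.67, limma adjusted p = 0.00162). For Cfd the means were 13.8 ± 18.7 FPKM in VHH-PD-1-Fc tumours and 129 ± 77.0 FPKM in VHH-OD-Fc tumours, and the log2 fold change was -4.03 (SE 1.02, limma adjusted p = 0.0094). Fabp4 changed by -2.87 (limma adjusted p = 0.00135), Cidec by -2.83 (limma adjusted p = 0.00342), Adipoq by -2.36 (limma adjusted p = 0.00714) and Retn by -1.83 (limma adjusted p = 0.0134). With no filter on low values Pck1 changed by -1.52 (SE 0.43, limma adjusted p = 0.0392). Lipe had 4.37 ± 0.895 FPKM in VHH-PD-1-Fc tumours and 5.87 ± 1.22 FPKM in VHH-OD-Fc tumours and was not called (log2 fold change -0.35, limma adjusted p = 0.102). Of all genes tested, 42.6% were called here and 28.4% were called lower. The median log2 fold change was -2.83 over the 7 genes without Pck1 and -0.16 over all genes tested. Among the 7 genes without Pck1, libraries of both groups did not overlap for 6, all but Lipe, against 31.6% of all genes tested in that direction. Pck1 and the untested Plin1 and Lep were separated too, Lep at levels near those of single fragments. These 3 are not used as support. Retn missed the threshold without VHH-OD-Fc replicate 2 (-1.43, limma adjusted p = 0.0531), library quality weights ended the calls of Adipoq (limma adjusted p = 0.0746), Retn (0.175) and Pck1 (0.0958), and without the 3 libraries that stood apart only Cidec, Fabp4 and Car3 were called.

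Against Ctrl, the VHH-PD-1-Fc tumours had lower Fabp4 and Car3, and the other 6 tested genes did not pass. Fabp4 averaged 3.55 ± 3.20 FPKM in VHH-PD-1-Fc tumours and 14.1 ± 6.85 FPKM in Ctrl tumours (SD, n = 3 each), with a log2 fold change of -1.86 (SE 0.50, limma adjusted p = 0.0113) and no overlap of libraries, a separation seen in this direction for 33.7% of all genes tested. Car3 averaged 2.19 ± 2.76 FPKM in VHH-PD-1-Fc tumours and 11.6 ± 6.48 FPKM in Ctrl tumours, with a log2 fold change of -2.17 (SE 0.67, limma adjusted p = 0.0214). Its libraries overlapped, since VHH-PD-1-Fc replicate 3 (5.36 FPKM) lay above Ctrl replicate 1 (4.65 FPKM). The Car3 call was lost without VHH-PD-1-Fc replicate 1 (limma adjusted p = 0.074), VHH-PD-1-Fc replicate 2 (0.0641), Ctrl replicate 2 (0.0591) or Ctrl replicate 3 (0.0778), and with no filter on low values (0.059). The call of 2 of 8 genes compares with 46.9% of all genes tested that were called, 32.3% of them lower as a share of all genes, so these genes were not called more often than genes at large. Cfd had a log2 fold change of -2.08 (95% interval -4.33 to 0.172, limma adjusted p = 0.115), and without VHH-PD-1-Fc replicate 3 it was called at -3.27 (limma adjusted p = 0.0122). Cidec had a log2 fold change of -1.09 (limma adjusted p = 0.147), Adipoq of -0.82 (0.255), Pck1 of -0.46 (0.379) and Retn of -0.36 (0.579). For Retn the sign turned to 0.15 without Ctrl replicate 3.

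VHH-OD-PD-1-Fc tumours and Ctrl tumours showed no called difference in any of the 8 genes, whereas 42.2% of all genes tested were called in that comparison and 27.1% were called lower. Mean levels were 1.11 ± 0.0599 FPKM of Adipoq in VHH-OD-PD-1-Fc tumours and 2.93 ± 3.06 FPKM in Ctrl tumours, and 14.4 ± 1.79 FPKM of Cfd in VHH-OD-PD-1-Fc tumours and 39.9 ± 41.7 FPKM in Ctrl tumours (SD, n = 3 each). Ctrl replicate 3 carried most of these Ctrl means. The 8 log2 fold changes lay between -0.98 (Car3, 95% interval -2.45 to 0.487) and -0.0445 (Lipe, 95% interval -0.403 to 0.314), with limma adjusted p = 0.145 to 0.867 and a median of -0.67, against a median of -0.14 over all genes tested. Libraries did not overlap for Fabp4, at 5.79 to 6.79 FPKM in VHH-OD-PD-1-Fc tumours against 9.45 to 22.0 FPKM in Ctrl tumours, and for Pck1, at 0.00577 to 0.117 FPKM against 0.355 to 1.65 FPKM. In this direction 41.4% of all genes tested were separated. With library quality weights in limma, which were highest for Ctrl replicate 3 (5.67) and 2.28 to 2.40 for the VHH-OD-PD-1-Fc libraries, 6 of the 8 genes were called lower (all but Retn and Lipe), and with a pseudocount of 0.1 Pck1 was called (-2.31, limma adjusted p = 0.0498).

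VHH-OD-Fc tumours had more adipocyte RNA than Ctrl tumours on average, but within a spread too wide for a call. Adipoq averaged 9.38 ± 5.11 FPKM in VHH-OD-Fc tumours and 2.93 ± 3.06 FPKM in Ctrl tumours, a ratio of means of 3.20, and Cidec averaged 11.5 ± 7.10 FPKM in VHH-OD-Fc tumours and 3.18 ± 3.50 FPKM in Ctrl tumours, a ratio of 3.61 (SD, n = 3 each). For Cfd the means were 129 ± 77.0 FPKM in VHH-OD-Fc tumours and 39.9 ± 41.7 FPKM in Ctrl tumours, and for Retn they were 7.11 ± 4.39 FPKM in VHH-OD-Fc tumours and 1.98 ± 1.97 FPKM in Ctrl tumours. The ratio of means was 1.22 for Lipe and 2.22 to 3.89 for the other 7 tested genes. Libraries overlapped for all 10 genes, while 10.2% of all genes tested were separated. They overlapped because Ctrl replicate 3 lay above VHH-OD-Fc replicate 1 for 8 of them and above VHH-OD-Fc replicate 3 for 4. All 8 log2 fold changes were positive, between 0.24 (Lipe) and 1.96 (Cfd), with a median of 1.51 against -0.02 over all genes tested. None was called (limma adjusted p = 1 for each), and 5 of the 8 had an unadjusted limma p under 0.05. Among these 5 was Pck1, which passed the filter only through the VHH-OD-Fc libraries and Ctrl replicate 3. Without Pck1 the median over the other 7 genes was 1.54. The share of all genes called was 0%, with 449 of 14306 genes at an unadjusted limma p under 0.05 and a smallest adjusted p of 0.108. The 95% interval was 0.296 to 2.79 for Adipoq, 0.449 to 3.03 for Cidec and -0.295 to 4.20 for Cfd on the log2 scale, so differences of several-fold were neither shown nor bounded tightly. The median over the 8 genes was 1.02 without VHH-OD-Fc replicate 2, 1.94 without Ctrl replicate 3, and 0.64 without the 3 libraries that stood apart.

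Between both groups with a PD-1 arm, no adipocyte gene differed by a call. Fabp4 averaged 6.35 ± 0.513 FPKM in VHH-OD-PD-1-Fc tumours and 3.55 ± 3.20 FPKM in VHH-PD-1-Fc tumours, and Adipoq averaged 1.11 ± 0.0599 FPKM in VHH-OD-PD-1-Fc tumours and 1.19 ± 1.57 FPKM in VHH-PD-1-Fc tumours (SD, n = 3 each). Log2 fold changes lay between -0.23 (Pck1) and 1.18 (Car3), with limma adjusted p = 0.418 to 0.922, and 0.839% of all genes tested were called. The 95% intervals were -1.07 to 1.43 for Adipoq, -0.847 to 1.73 for Cidec and -0.192 to 2.01 for Fabp4, so the data do not show that these groups had like levels. Libraries overlapped for all 10 genes, while 21% of all genes tested were separated. The change that the OD arm brought with a PD-1 arm minus the change without one was between -1.36 (Adipoq, SE 0.80) and -0.10 (Fabp4, SE 0.71) on the log2 scale, and for none of the 8 genes did it pass (limma adjusted p = 0.421 to 0.976). Among all genes tested, 0.112% passed for that difference.

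**Figure D2:**
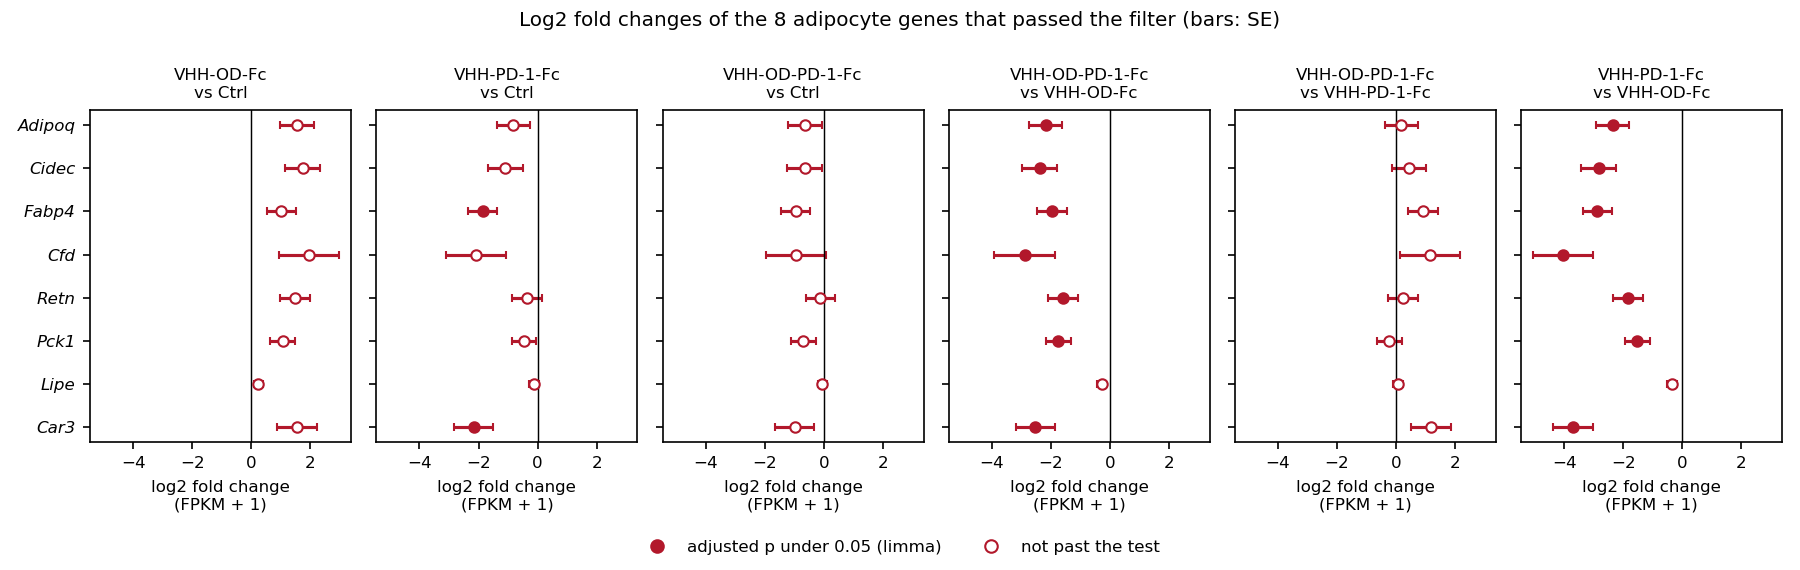
Log2 fold changes on the FPKM + 1 scale of the 8 genes past the filter in the 6 comparisons, with bars of 1 SE and filled points where the limma adjusted p was under 0.05. Filled points stand in all rows but Lipe where a group with a PD-1 arm was set against VHH-OD-Fc, with Pck1 tested only because of its high libraries, at Fabp4 and Car3 for VHH-PD-1-Fc against Ctrl, and nowhere in the other comparisons.

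Cfd and Adipoq kept a narrow proportion while their levels varied. Cfd over Adipoq was 9.74 to 17.2 in all 12 libraries, a 1.76-fold range, although Adipoq itself ran between 0.0317 and 14.8 FPKM. The lowest Adipoq value and the ratio of 9.74 belong to VHH-PD-1-Fc replicate 1, where 1 fragment on 1 kb gave 0.0438 FPKM. That ratio thus rests on about 1 fragment and carries little weight. In the same library Fabp4 over Adipoq was 61.1 and Retn over Adipoq 19.2. By group, Cfd over Adipoq was 11.8, 14.1 and 14.2 in VHH-OD-Fc tumours and 9.74, 10.7 and 11.8 in VHH-PD-1-Fc tumours. It was 12.0, 12.9 and 14.0 in VHH-OD-PD-1-Fc tumours, and 10.7, 17.2 and 13.6 in Ctrl tumours, so no group held the extremes alone. In the 10 libraries with at least 1 FPKM of Adipoq, Cfd over Adipoq was 10.7 to 17.2 and Cidec over Adipoq 0.566 to 1.57. Retn over Adipoq was 0.576 to 1.88 and Fabp4 over Adipoq 2.44 to 9.23 in these libraries. Car3 over Adipoq was 1.81 to 12.4 there and highest in Ctrl replicate 2, with a muscle sum of 483 FPKM. VHH-OD-Fc replicate 2, with a muscle sum of 2681 FPKM, had a ratio of 4.83. The part of muscle in the Car3 level was not tested. Lipe over Adipoq varied 10.0-fold in these libraries, against 1.60-fold for Cfd, and no ratio was formed for Lep. As a description within groups, each gene's deviations from its group means were set beside the mean deviation of the other tested members over the 12 libraries, which share depth and library. Pearson's r was 0.975 for Adipoq, 0.955 for Cidec, 0.925 for Fabp4, 0.916 for Retn, 0.9 for Car3, 0.882 for Cfd, 0.802 for Pck1 and 0.368 for Lipe. Without the 2 libraries farthest from the median, VHH-OD-Fc replicates 2 and 3, r was 0.979 for Adipoq and 0.237 for Lipe. Lipe was thus the gene that followed the others least.

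**Figure D3:**
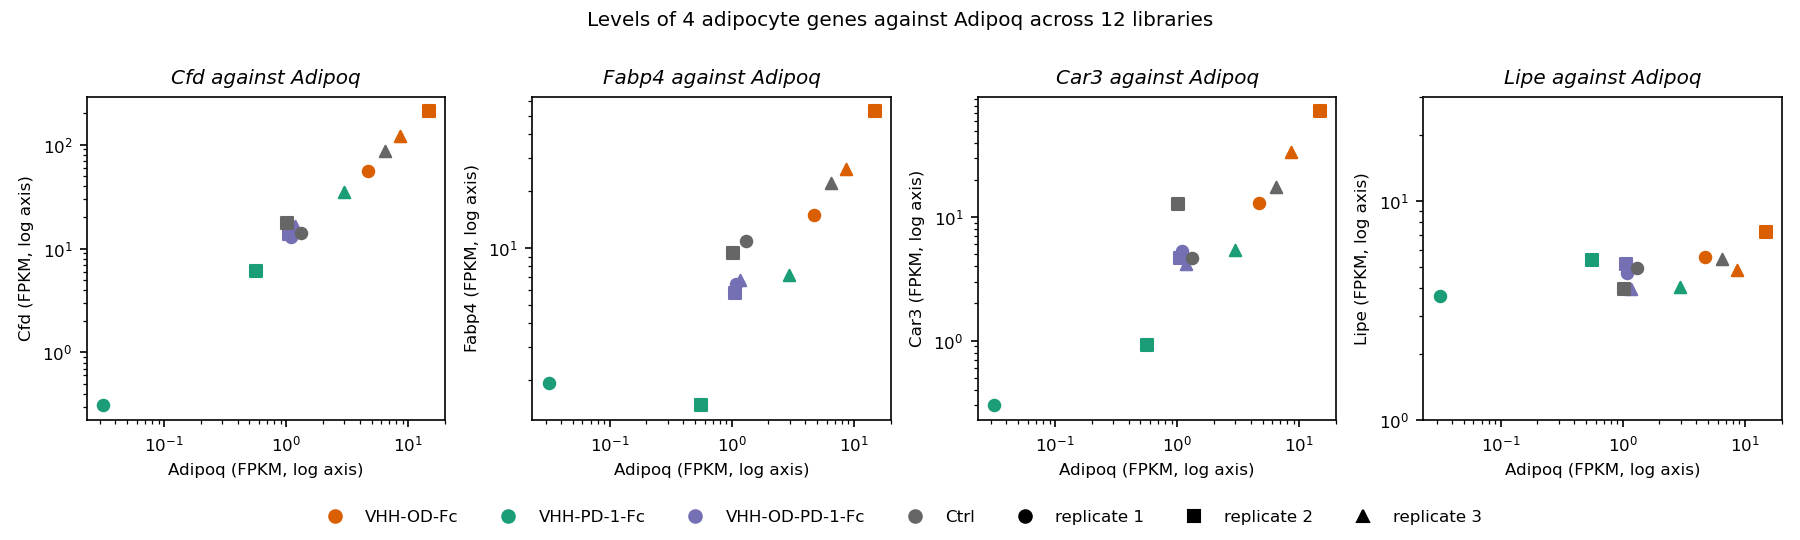
FPKM of Cfd, Fabp4, Car3 and Lipe against FPKM of Adipoq on log axes, with a point per library. Cfd lies along a straight band at 9.74 to 17.2 times Adipoq, Car3 leaves the band in Ctrl replicate 2, and Lipe stays between 3.68 and 7.21 FPKM.

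Genes of like pattern outside the set included other fat genes, with Plin4 first. Of 11068 named candidates, the 10 whose deviations followed the mean of the members most closely were Plin4 (r = 0.969), Mgst2 (0.942), Mrap (0.927), Apoc1 (0.924), Cd1d1 (0.92), Rufy1 (0.919), Cldn15 (0.915), Mgll (0.914), Scd1 (0.91) and Mrpl15 (0.892), over 12 libraries. Without the 2 farthest libraries these values ranged between 0.869 (Mrpl15) and 0.967 (Plin4). Plin4 encodes perilipin 4 of adipocyte droplets, Mrap an accessory protein of melanocortin receptors, Mgll the lipase that ends triglyceride breakdown and Scd1 a fatty acid desaturase. Plin4 had 1.38, 6.18 and 2.68 FPKM in VHH-OD-Fc tumours, 0.0414, 0.253 and 1.27 FPKM in VHH-PD-1-Fc tumours, 0.516, 0.448 and 0.367 FPKM in VHH-OD-PD-1-Fc tumours, and 0.443, 1.11 and 2.82 FPKM in Ctrl tumours. It changed by -1.46 in VHH-OD-PD-1-Fc tumours (limma adjusted p = 0.0214) and by -1.47 in VHH-PD-1-Fc tumours (limma adjusted p = 0.0199), both against VHH-OD-Fc. Rufy1 and Mrpl15, genes of endosomes and of mitochondrial ribosomes, varied little in level, at 12.5 to 15.2 FPKM and 5.01 to 7.90 FPKM.

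Further adipocyte genes were mostly low. Of 10 other white adipocyte genes (Plin4, Trarg1, Adrb3, Adig, Acvr1c, Aqp7, Slc7a10, Lgals12, Thrsp and Mrap), 3 passed the filter. Their summed level was 4.37 to 20.3 FPKM in VHH-OD-Fc tumours, 0.974 to 4.92 FPKM in VHH-PD-1-Fc tumours, 2.33 to 2.87 FPKM in VHH-OD-PD-1-Fc tumours and 2.23 to 8.83 FPKM in Ctrl tumours. The highest library was VHH-OD-Fc replicate 2. Plin4 was the only one of the 3 called lower in VHH-OD-PD-1-Fc than in VHH-OD-Fc tumours. Plin4 was also called lower in VHH-PD-1-Fc than in VHH-OD-Fc tumours. Adig passed the filter only through VHH-OD-Fc and Ctrl libraries in which it was high, so its test is not used. Genes of brown and beige fat were mostly low. Ucp1, Cidea, Elovl3, Ppargc1a, Prdm16 and Zic1, 6 of the 9 listed, were under 0.5 FPKM in every library and were not tested. The 3 tested, Cox8b, Cox7a1 and Dio2, gave no call in any comparison. Cox8b had 0 to 26.2 FPKM, highest in VHH-OD-Fc replicate 2, Cox7a1 1.19 to 4.45 FPKM and Dio2 0.171 to 2.04 FPKM. Adipogenic transcription factors did not follow the members as a group. Pparg, the receptor that directs fat cell formation, reached 1 FPKM in only 1 library and was not tested. Of 8 tested factors, Srebf1 (-0.38, limma adjusted p = 0.0184) and Rxra (-0.51, limma adjusted p = 0.00323) were lower in VHH-OD-PD-1-Fc than in VHH-OD-Fc tumours, with a median of -0.31 over the 8, and Srebf1 alone (-0.48, limma adjusted p = 0.00563) was lower in VHH-PD-1-Fc than in VHH-OD-Fc tumours. Over all genes tested, 24.5% and 28.4% were called lower in these comparisons, so the factors were called about as often as genes at large or less often.

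Some lipid metabolism genes outside the set were called against VHH-OD-Fc as well. Of 13 genes of fatty acid and triglyceride synthesis, 5 were lower and 2 higher in VHH-OD-PD-1-Fc than in VHH-OD-Fc tumours, and 6 were lower and 1 higher in VHH-PD-1-Fc than in VHH-OD-Fc tumours, with medians of -0.24 and -0.27. Over all genes 24.5% and 28.4% were called lower. Gpd1, which makes glycerol 3-phosphate, had 1.39, 9.89 and 3.61 FPKM in VHH-OD-Fc tumours, 0.310, 0.318 and 0.229 FPKM in VHH-PD-1-Fc tumours, 0.633, 0.433 and 0.507 FPKM in VHH-OD-PD-1-Fc tumours, and 0.776, 0.928 and 2.25 FPKM in Ctrl tumours. All libraries with a PD-1 arm lay below the VHH-OD-Fc libraries, but Gpd1 passed the filter only through VHH-OD-Fc and Ctrl libraries. Its lower calls are among the 5 and the 6 counted above, and the medians include it. They are not used as support. Agpat2, an acyltransferase of the same route, rose in both comparisons (0.60, limma adjusted p = 0.00237, and 0.44, limma adjusted p = 0.011). Among 7 tested genes of fatty acid uptake, the scavenger receptor Cd36 (-1.67, limma adjusted p = 0.0066) and lipoprotein lipase Lpl (-1.64, limma adjusted p = 0.00855) fell in VHH-OD-PD-1-Fc against VHH-OD-Fc tumours. Those genes and Angptl4, an inhibitor of that lipase, fell in VHH-PD-1-Fc against VHH-OD-Fc tumours (Cd36 -2.30, Lpl -1.28 and Angptl4 -1.38, limma adjusted p = 0.00116, 0.0251 and 0.0017). The 9 tested genes of droplets and lipolysis that are also used outside fat gave no call in VHH-OD-PD-1-Fc against VHH-OD-Fc tumours, with a median of 0.0979, and 1 call, Mgll (-0.81, limma adjusted p = 0.0329), in VHH-PD-1-Fc against VHH-OD-Fc tumours. Plin2, the droplet coat of most cells, was at 30.8 to 93.5 FPKM over the 12 libraries, far above Plin1 on the same per-length scale.

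Signalling genes gave mostly lower calls against VHH-OD-Fc. Of 8 tested genes of insulin and adrenergic signalling, 4 were lower in VHH-OD-PD-1-Fc and 4 in VHH-PD-1-Fc than in VHH-OD-Fc tumours, with medians of -0.62 and -0.50, beside 24.5% and 28.4% of all genes called lower. Pde3b, a phosphodiesterase, and Slc2a4 passed the filter only through VHH-OD-Fc and Ctrl libraries. Pde3b is counted among the lower calls of both comparisons, and Slc2a4 among those in VHH-PD-1-Fc tumours. These calls are not used as support. The adaptor Irs2 was lower by 1.05 and by 0.90 on the log2 scale in those comparisons (log2 fold changes -1.05 and -0.90, limma adjusted p = 9.22e-05 and 0.000186). Among 11 tested receptors and partners of adipokines, 3 were lower and 1 higher in VHH-OD-PD-1-Fc than in VHH-OD-Fc tumours, and 4 were lower in VHH-PD-1-Fc than in VHH-OD-Fc tumours, shares close to those over all genes. Nampt, a cytokine and enzyme of NAD synthesis, changed by -0.63 and -0.92 (limma adjusted p = 0.00982 and 0.00128), and the chemerin gene Rarres2 by -1.84 in VHH-PD-1-Fc against VHH-OD-Fc tumours (limma adjusted p = 0.00469). Cap1, a binding partner of resistin known from human cells, was higher in VHH-OD-PD-1-Fc than in VHH-OD-Fc tumours (0.37, limma adjusted p = 0.00427). The adiponectin receptor genes Adipor1 and Adipor2 were at 38.4 to 47.9 FPKM and 32.8 to 47.3 FPKM in all libraries, and the leptin receptor gene Lepr was under 0.5 FPKM in each. In VHH-OD-Fc against Ctrl tumours none of these lists held a call, as for all genes.

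Among other cell types of the fat pad, fibroblast genes were called lower more often than progenitor and endothelial genes. All 8 fibroblast and matrix genes were lower in VHH-PD-1-Fc than in VHH-OD-Fc tumours, and 7 of 8 in VHH-OD-PD-1-Fc than in VHH-OD-Fc tumours, with medians of -1.56 and -1.001 on the log2 scale. Their sum was 740.0 to 1176 FPKM in VHH-OD-Fc tumours, 233 to 494 FPKM in VHH-PD-1-Fc tumours, 572 to 576 FPKM in VHH-OD-PD-1-Fc tumours and 595 to 869 FPKM in Ctrl tumours. Pdgfra, a receptor on adipose progenitors and fibroblasts, changed by -0.99 in VHH-OD-PD-1-Fc tumours and by -1.23 in VHH-PD-1-Fc tumours against VHH-OD-Fc (limma adjusted p = 0.000373 and 0.000145). Of 5 tested progenitor genes, 1 was lower in VHH-OD-PD-1-Fc and 3 in VHH-PD-1-Fc than in VHH-OD-Fc tumours, while 24.5% and 28.4% of all genes were called lower in these comparisons. Of 7 tested endothelial genes, 4 were lower in VHH-OD-PD-1-Fc and 3 in VHH-PD-1-Fc than in VHH-OD-Fc tumours, and the endothelial sum was 52.7 to 77.1 FPKM in VHH-OD-Fc tumours, 35.2 to 49.4 FPKM in VHH-PD-1-Fc tumours, 37.6 to 40.02 FPKM in VHH-OD-PD-1-Fc tumours and 43.0 to 65.7 FPKM in Ctrl tumours. Kdr, a tested endothelial gene, passed the filter only through VHH-OD-Fc and Ctrl libraries and had 0.4725 to 0.7916 FPKM in libraries with a PD-1 arm. Any call of Kdr within these counts is not used as support. The part of stroma and vessels in the adipocyte gene differences was not tested.

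Muscle, lymph node and macrophage genes had patterns of their own. The sum of 15 skeletal muscle genes was 125 to 2681 FPKM in VHH-OD-Fc tumours, 118 to 154 FPKM in VHH-PD-1-Fc tumours, 333 to 347 FPKM in VHH-OD-PD-1-Fc tumours and 159 to 483 FPKM in Ctrl tumours, and 0 of 13 tested were called in any comparison. Acta1, skeletal muscle actin, had 1.45, 1437 and 144 FPKM in VHH-OD-Fc tumours, 19.0, 0.209 and 0.302 FPKM in VHH-PD-1-Fc tumours, 117, 124 and 123 FPKM in VHH-OD-PD-1-Fc tumours, and 0.323, 148 and 9.97 FPKM in Ctrl tumours. VHH-OD-Fc replicate 1 was thus high in adipocyte genes with little Acta1, and VHH-OD-PD-1-Fc tumours the reverse. B cell and lymph node genes summed to 4.27 to 36.3 FPKM in VHH-OD-Fc tumours, 1.97 to 5.37 FPKM in VHH-PD-1-Fc tumours, 1.13 to 1.83 FPKM in VHH-OD-PD-1-Fc tumours and 8.45 to 56.3 FPKM in Ctrl tumours. The highest value was in Ctrl replicate 3, the Ctrl library richest in adipocyte genes. The second highest, 40.2 FPKM, was in Ctrl replicate 1, the Ctrl library poorest in them. Of 3 tested genes of that list, Cxcl13, a chemokine of B cell follicles, was lower in VHH-OD-PD-1-Fc (-2.40, limma adjusted p = 0.0138) and in VHH-PD-1-Fc tumours (-2.44, limma adjusted p = 0.0119) than in VHH-OD-Fc tumours. It was the only one of the 3 called there, beside 24.5% and 28.4% of all genes called lower. The 10 macrophage genes summed to 1105 to 1582 FPKM in VHH-OD-Fc tumours, 1449 to 4252 FPKM in VHH-PD-1-Fc tumours, 1571 to 1618 FPKM in VHH-OD-PD-1-Fc tumours and 1241 to 2355 FPKM in Ctrl tumours. In VHH-PD-1-Fc replicates 1 to 3 the macrophage sum was 1449, 4252 and 2379 FPKM, beside 1.94, 1.47 and 7.23 FPKM of Fabp4. The part of macrophages in the Fabp4 level was not tested. Of 10 genes of normal mammary epithelium 5 (Trp63, Wap, Lalba, Pgr and Elf5) and of 8 keratinocyte genes 5 (Krt1, Lor, Dsg1a, Flg2 and Krt15) were under 0.5 FPKM in every library. Others of these lists were higher, with Krt14 at 0.0261 to 26.8, Csn3 at 1.32 to 13.1 and Krt10 at 0.955 to 2.38 FPKM. Of 3 tested mammary epithelium genes, 1 was called higher and 1 lower in VHH-PD-1-Fc than in VHH-OD-Fc tumours, where 42.6% of all genes were called. Epithelial tumour genes summed to 1239 to 3862 FPKM over the 12 libraries, with 0 of 8 called in VHH-PD-1-Fc and 1 higher, Cldn7 (1.25, limma adjusted p = 0.0306), when VHH-OD-PD-1-Fc was set against VHH-OD-Fc tumours.

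**Figure D4:**
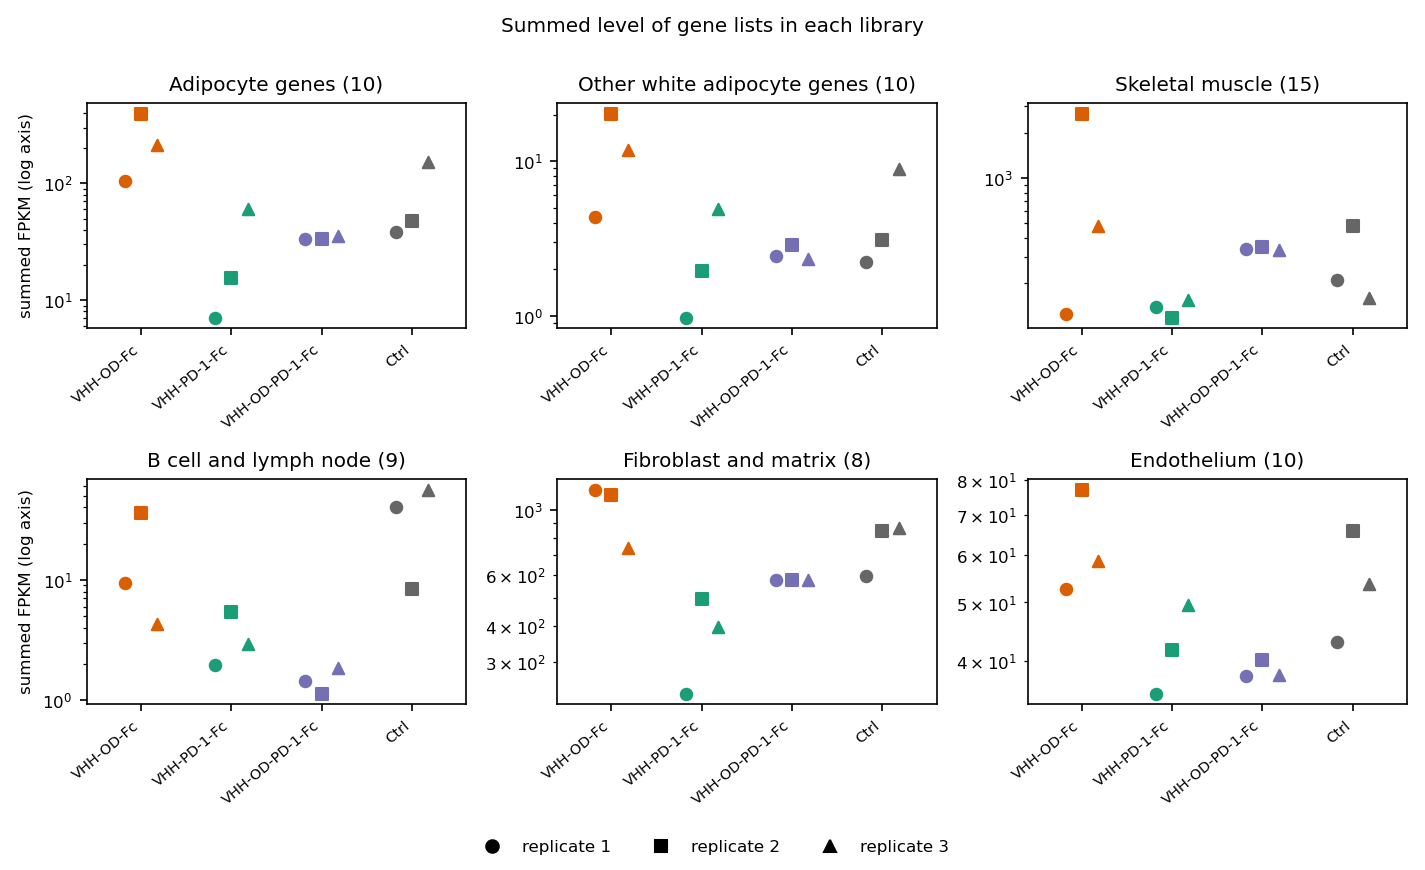
Summed FPKM per library of the adipocyte genes and of 5 other marker lists on log axes, with a point per library and a symbol per replicate number. The sums of the adipocyte genes and of the other white adipocyte genes have the same highest library, VHH-OD-Fc replicate 2, and the muscle sum of 2681 FPKM in that library stands far above the rest.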

How the data were processed

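The labels' protocols describe poly(A) tumour libraries, 12 in all, read from both ends. The submitters' processing notes name fastp 0.22.0, HISAT2 2.2.1 and the human build GRCh38, although the symbols are mouse. For the FPKM, the tool, annotation and use of strand: not given in the sources used here. The design text of the series describes LLC tumours and digoxin, which the sample labels do not, and the labels were used. The authors deposited 1 table of FPKM values with 12 library columns and 41009 symbols. Columns named OD-Fc were matched to the treatment label VHH-OD-Fc.

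FPKM are not counts, so limma 3.58.1 in R 4.3.3 was run on log2(FPKM + 1) of the 14306 genes with at least 1 FPKM in at least 3 of 12 libraries. A single fit over all 12 libraries had a coefficient for each group, a variance trend, 8 residual and 3.03 prior degrees of freedom, and 6 two-sided comparisons with Benjamini-Hochberg adjustment at 0.05. The fit was tested on simulated data. Intervals are 95% intervals of that fit.

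Depth was estimated from steps between low values of genes with 1 transcript in GENCODE M21 (GRCm38). Between 56.6% and 60.4% of these values were within 0.05 of a whole number of fragments, so counts were not recovered.

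The genes and all lists were chosen with earlier results of these data known. All 10 members are named. Of each other list up to 4 called genes of smallest p were eligible by rule, further genes were named after their values were seen, and like genes were the 10 of highest r. Replicate numbers were not used as pairs, since the labels do not call them pairs. The deviations of same-numbered libraries correlated at -0.154 to 0.184, which with so few libraries cannot show that no batch was shared. Alternatives changed the pseudocount, filter, scaling, weights, block and libraries. Csn2 was not analysed here, nor were promoter windows of Fabp4 and Car3.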

Additional observations from a re-analysis of the deposited data

How the results depend on the processing

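Single genes kept their sign and their side of the threshold in 412 results under other settings, where 22 lost and 11 gained a call and 5 changed sign, and in 550 with 1 library left out, where 16 lost and 2 gained a call and 8 changed sign. With a mean FPKM of at least 5 in place of the filter, 3741 genes were called for VHH-PD-1-Fc over Ctrl, 3293 for VHH-OD-PD-1-Fc over Ctrl, 3157 for VHH-OD-PD-1-Fc over VHH-OD-Fc and 3377 for VHH-PD-1-Fc over VHH-OD-Fc, with fewer genes tested. The last 2 comparisons then called 3 adipocyte genes each, all 3 that were tested, and medians of the adipocyte genes were -2.08 (VHH-PD-1-Fc over Ctrl), 1.14 (VHH-OD-PD-1-Fc over VHH-PD-1-Fc) and -3.71 (VHH-PD-1-Fc over VHH-OD-Fc). With no filter, 2 genes were called for VHH-OD-Fc over Ctrl, 188 for VHH-OD-PD-1-Fc over VHH-PD-1-Fc, and 1 adipocyte gene for VHH-PD-1-Fc over Ctrl. With a pseudocount of 0.1 medians were -1.99 (VHH-PD-1-Fc over Ctrl), -2.77 (VHH-OD-PD-1-Fc over VHH-OD-Fc), 1.04 (VHH-OD-PD-1-Fc over VHH-PD-1-Fc) and -3.50 (VHH-PD-1-Fc over VHH-OD-Fc), and 1 adipocyte gene was called for VHH-OD-PD-1-Fc over Ctrl. Rescaling to TPM gave a median of -2.78 for VHH-OD-PD-1-Fc over VHH-OD-Fc, and called Lipe there (-0.53, limma adjusted p = 0.031) and for VHH-PD-1-Fc over VHH-OD-Fc (-0.61, limma adjusted p = 0.0159). It moved the median of all genes to -0.38 for VHH-PD-1-Fc, then -0.33 for VHH-OD-PD-1-Fc, over Ctrl, and to -0.35 for VHH-PD-1-Fc and -0.30 for VHH-OD-PD-1-Fc over VHH-OD-Fc. Library quality weights called 4 genes for VHH-OD-Fc over Ctrl, 9901 for VHH-OD-PD-1-Fc over Ctrl, 8716 for VHH-OD-PD-1-Fc over VHH-OD-Fc and 11 for VHH-OD-PD-1-Fc over VHH-PD-1-Fc. They called 6 adipocyte genes for VHH-OD-PD-1-Fc over Ctrl and 4 for VHH-PD-1-Fc over VHH-OD-Fc, with medians of 0.51 (VHH-OD-Fc over Ctrl), -1.89 (VHH-PD-1-Fc over Ctrl) and -1.45 (VHH-OD-PD-1-Fc over Ctrl). Averaging the dual-arm (VHH-OD-PD-1-Fc) libraries into 1 sample, calls numbered 1329 over Ctrl, 1098 over VHH-OD-Fc, with 0 adipocyte genes, and 3 over VHH-PD-1-Fc. Without the 3 libraries that stood apart, 524 genes were called for VHH-OD-PD-1-Fc over VHH-PD-1-Fc, 4 adipocyte genes for VHH-OD-PD-1-Fc and 3 for VHH-PD-1-Fc over VHH-OD-Fc, and the median for VHH-OD-Fc over Ctrl was 0.64.

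The replicate block called 28 genes for VHH-OD-PD-1-Fc over VHH-PD-1-Fc and gained Cfd for VHH-PD-1-Fc over Ctrl (limma adjusted p = 0.0497), although the labels do not say that the numbers pair the libraries. Relative to Ctrl, Lipe changed sign with median-of-ratios scaling (0.0694 for VHH-PD-1-Fc and 0.0954 for VHH-OD-PD-1-Fc) and with quantile normalization (0.17 and 0.18), as did Retn for VHH-OD-PD-1-Fc (0.0155). With 1 library left out, genes called ranged between 0 and 1 for VHH-OD-Fc over Ctrl, 5353 and 6858 for VHH-PD-1-Fc over Ctrl, 4522 and 6907 for VHH-OD-PD-1-Fc over Ctrl, 4179 and 6565 for VHH-OD-PD-1-Fc over VHH-OD-Fc, 9 and 538 for VHH-OD-PD-1-Fc over VHH-PD-1-Fc, and 4542 and 6388 for VHH-PD-1-Fc over VHH-OD-Fc. Adipocyte genes called ranged in that order between 0 and 0, 1 and 3, 0 and 0, 5 and 7, 0 and 0, and 6 and 8, and their medians between 1.02 and 1.94, -1.47 and -0.33, -0.98 and -0.0875, -2.47 and -1.66, 0.0259 and 0.83, and -3.11 and -2.20. Some signs also turned with 1 library left out. Retn (VHH-PD-1-Fc over Ctrl) ranged between -0.71 and 0.15, its highest value without Ctrl replicate 3. In VHH-OD-PD-1-Fc over Ctrl, leaving out the same library turned Cidec to 0.0025 (lowest value -1.11 over the libraries left out), Retn to 0.39 and Lipe to 0.0381, and Lipe was between -0.15 and 0.0417, its highest value without VHH-OD-PD-1-Fc replicate 3. In VHH-OD-PD-1-Fc over VHH-PD-1-Fc, leaving out VHH-PD-1-Fc replicate 1 turned 3 genes, with Adipoq between -0.24 and 0.73, Cfd between -0.0622 and 2.33 and Lipe between -0.0224 and 0.20 over the libraries left out. The causes were not tested. Depth limits Lep, Plin1 and Pck1 most, since they were near or under 1 FPKM in most libraries.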
